A study of Mus musculus with 8 samples.

Results

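The retinoic acid genes described here are 9 genes chosen by name for their function: the receptors Rara, Rarb and Rarg, their partners Rxra and Rxrb, the synthesis enzymes Aldh1a2 and Aldh1a3, and the degrading enzymes Cyp26a1 and Cyp26b1. They are 9 of 49550 annotated mouse genes. DNA methylation was read at single CpGs by reduced representation bisulfite sequencing, in which DNA is cut at CpG-rich sites and bisulfite treatment turns unmethylated cytosines into a different base. The CpGs of each gene were divided into its 2 ends (1000 bp outside to 500 bp inside), the rest of the gene, and the outer flanks (1000 to 2000 bp outside). Methylated and unmethylated reads were summed over each of these 4 windows in each library, and the methylation level is the percent of reads that were methylated. Of 36 possible windows, 18 held at least 20 reads in every library, 8 had fewer reads in some library and 10 had no covered CpG. Each of the 9 genes kept at least 1 window, as did 22529 of all genes. The CpG positions lie on mm10.

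The libraries came from leukaemic cells, named I1DN in the labels, that had been transplanted into mice and collected as cKit+/Cd11b- progenitors after 5 days of treatment. The labels do not spell out I1DN, and the study's title concerns mutant IDH1 in acute myeloid leukaemia. There were 4 groups with 2 libraries each: AG120, an inhibitor of mutant IDH1; AZA, the DNA methyltransferase inhibitor azacitidine; AG120 together with AZA, called the combination below; and Vehicle. All 4 groups share the leukaemia and the transplantation, and the study's design text says that it asked what the combined treatment did to methylation and expression. The labels do not give the age, sex or strain of the mice, or say whether the libraries of a group came from separate mice, so the tests measure only the spread between these libraries.

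Retinoic acid is made from retinaldehyde by enzymes of the ALDH1A family and is broken down by enzymes of the CYP26 family. It binds a RAR that is paired with an RXR on DNA, and this pair changes from a repressor to an activator of its target genes when the ligand is bound. In myeloid cells RARA is best known as the gene fused to PML in human acute promyelocytic leukaemia, and methylation at a CpG-rich gene start usually goes with a silent gene.

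Promoter sequences from RefSeq (assembly GRCm38.p6), spanning 250 bases before to 50 bases after an annotated start, were matched to 8 of the 9 genes, which gave 14 windows. Those of Aldh1a2 and Rarb are shown because the values below turn on the CpGs in and beside them. In the Aldh1a2 window at chr9:71215539-71215838 on the plus strand, capitals mark the CpGs that were read in at least 1 library, which were all 50 CpGs present.

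Aldh1a2: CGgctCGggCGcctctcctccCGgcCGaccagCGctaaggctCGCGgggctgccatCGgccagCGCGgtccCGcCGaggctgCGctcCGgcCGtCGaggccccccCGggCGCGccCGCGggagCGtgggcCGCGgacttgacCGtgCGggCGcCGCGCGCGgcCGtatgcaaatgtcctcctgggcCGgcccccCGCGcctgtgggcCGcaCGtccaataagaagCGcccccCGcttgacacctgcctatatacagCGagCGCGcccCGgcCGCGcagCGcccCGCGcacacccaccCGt

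In the Rarb window at chr14:16575427-16575726 on the minus strand, capitals mark a pair of receptor motifs spaced by 5 bases, at chr14:16575513-16575529. This pair is the retinoic acid response element for which the Rarb promoter is known. The letters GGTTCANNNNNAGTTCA, searched on both strands, occurred in 2 of 32851 mouse promoter windows, or 0.00609%; this form was added after the Rarb sequence had been seen.

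Rarb: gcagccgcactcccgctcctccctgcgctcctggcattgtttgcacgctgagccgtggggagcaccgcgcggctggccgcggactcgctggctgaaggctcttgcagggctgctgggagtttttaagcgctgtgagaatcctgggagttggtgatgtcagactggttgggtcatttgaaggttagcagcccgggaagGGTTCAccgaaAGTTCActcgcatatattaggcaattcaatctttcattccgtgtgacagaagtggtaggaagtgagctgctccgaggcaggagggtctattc

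Of the single motifs, AGGTCA was found in 16.3% and AGTTCA in 14.0% of all windows on either strand, and each in 3 of the 14 windows of these genes. A direct repeat of either motif spaced by 5 bases was found in 13 of 32851 windows, or 0.0396%, and Cyp26a1 held the only one among the 14. It lies at chr19:37697776-37697792 and is read on the minus strand, with the motifs in capitals. Repeats spaced by 1 or 2 bases were found in 0 of the 14 windows.

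Cyp26a1: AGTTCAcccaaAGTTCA

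The Cyp26a1 window around this site had no covered CpG, so its methylation could not be read. A match of letters is a description of the sequence and does not show that a receptor binds there.

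The 8 libraries differed in depth with the treatment. The 4 libraries with AG120 held 90373925 to 110137175 CpG calls at 1386488 to 1749778 positions, of which 41.5% to 50.5% were methylated. The 4 without AG120 held 119441709 to 130796962 calls at 1831177 to 1994393 positions, of which 32.6% to 39.2% were methylated. Only 138110 of 4006353 positions were read in all 8 libraries, and 211 of the 3460 positions in and around the retinoic acid genes were, or 6.10%. A window's level in 2 libraries therefore rests largely on different CpGs, and the part that depth and this choice of CpGs play in the differences below was not tested. At single positions with 10 or more reads the level was often exactly 0% or 100%. This held for 83.8% to 100% of such positions at the Rarg start and for 53.7% to 86.9% at the Aldh1a2 start, by library. Reads without molecular identifiers are not independent molecules, so limits given for a level of 0 cover counting error only.

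None of the 18 windows passed the test in any comparison. The test was edgeR's quasi-likelihood test on methylated and unmethylated reads, fitted over all 34629 windows of all genes with 2-sided p-values adjusted by Benjamini-Hochberg to a false discovery rate of 0.05. It called 0 of 34629 windows (0%) in AG120 against Vehicle, where 1268 had an unadjusted p under 0.05, and 0 (0%) in AZA against Vehicle, where 878 did. It also called 0 (0%) in the combination against Vehicle, against AZA and against AG120, where 1919, 1814 and 1545 windows had an unadjusted p under 0.05. limma called 0 windows in each of these comparisons. Among the windows of the retinoic acid genes the unadjusted p was under 0.05 only for the Rxra start, in the combination against Vehicle and against AZA. DESeq2 called 367, 189, 834, 891 and 839 of all windows in the same order of comparisons, and 0 of the windows of the retinoic acid genes. What follows therefore describes levels, and no difference named below passed the main test.

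**Figure D1:**
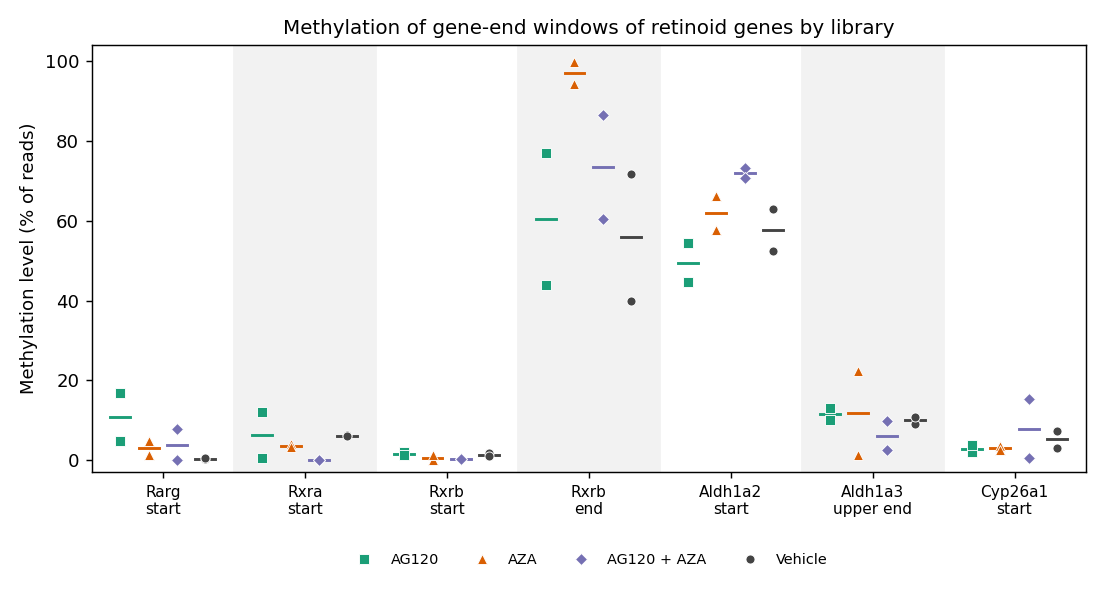
Methylation level (percent of reads) at the 7 gene-end windows with 20 or more reads in every library, by group. Each point is a library and each bar the mean of 2; the starts of Rarg, Rxra, Rxrb and Cyp26a1 stay at 16.8% or below in all libraries, while the Aldh1a2 start lies between 44.6% and 73.2%.

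Of the receptors, Rarg had the only kept start among the 3 RAR genes. Rarg codes for RARγ, a receptor known for its part in keeping blood stem cells, and its start window (chr15:102257022-102258522, 83 positions) was nearly free of methylation in Vehicle. It had 4.75% and 16.8% methylated reads in the AG120 libraries, 1.20% and 4.80% in the AZA libraries, 0.00% and 7.67% in the combination libraries, and 0.19% and 0.41% in the Vehicle libraries. Both single-drug groups lay above Vehicle in this window, and the combination overlapped it. The level of 0 in combination replicate 1 came from 3184 reads, which allows up to 0.0942%. The mean was 10.8 ± 8.54% with AG120 and 0.30 ± 0.16% with Vehicle (SD, n = 2 each), the smallest p of the 18 windows in that comparison, and it missed the threshold (edgeR adjusted p = 1).

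The Rarg start was partly read at the same CpGs in both groups. At the 36 of 83 positions with 10 or more reads in AG120 and in Vehicle, the unweighted mean was 10.5% with AG120 and 0.0974% with Vehicle, with 10 positions higher and 1 lower. At the 37 positions read in all 8 libraries the level was 0.45% and 7.42% in the AG120 libraries against 0.0796% and 0.163% in the Vehicle libraries. The larger share of the AG120 level thus came from replicate 2. With the window narrowed to 500 bp outside and 250 bp inside, the difference between AG120 and Vehicle was 2.65 points, compared with 10.5 points in the full window. For AZA the narrower window turned the difference from Vehicle to -0.287 points, compared with 2.70 in the full window. At the 52 positions with 10 or more reads in both groups, AZA had 2.75% and Vehicle 1.997%, with 4 positions higher and 4 lower. In the promoter window at the Rarg start (chr15:102257473-102257772, 12 positions), both AG120 libraries were at 0%, of 70 and 85 reads. The Vehicle libraries had 0% of 10 reads and 29.3% of 41 reads there.

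Rara and Rarb had no kept end. Rara codes for RARα, the main RAR of myeloid cells. Its outermost start window had 17 covered positions and no read in at least 1 library. A pair of annotated starts lies close together inside the gene, and the promoter windows of both were read in every library. The upstream one is at chr11:98937446-98937745 (38 positions). There Rara had 0% in both AG120 libraries, 0% and 0.113% in the AZA libraries, 0% in both combination libraries, and 1.33% and 0% in the Vehicle libraries. The fewest reads, 123 in combination replicate 2, allow a level of up to 2.44% where none was methylated. The overlapping window of the downstream start (chr11:98937468-98937767, 42 positions) had 9.74% and 7.11% in the AG120 libraries, 0.653% and 0.0892% in the AZA libraries, 2.65% and 0% in the combination libraries, and 1.09% and 0.0381% in the Vehicle libraries. The upstream window was at or near 0 in all 4 groups. In the downstream window both AG120 libraries lay above the other 6. The windows overlap, and neither AG120 library had a methylated read in the upstream one. Their methylated reads therefore lay only in the part of the downstream window past chr11:98937745, which ends at chr11:98937767.

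Levels around these Rara promoters were higher and uneven. The stretch that holds them (chr11:98936338-98938040, 148 positions) had 56.0% and 27.5% in the AG120 libraries, 9.09% and 19.4% in the AZA libraries, 20.9% and 47.9% in the combination libraries, and 20.6% and 21.7% in the Vehicle libraries. A stretch here is a run of covered positions no more than 500 bp apart with 20 or more reads in every library, a unit defined after the data had been seen and given with no test. Both AG120 libraries lay above both Vehicle libraries in this stretch, and both AZA libraries lay below them. Of its 148 positions, 0 were read in all 8 libraries, so this order is not shown at CpGs common to all of them. Nearer the 3′ end, the Rara stretches at chr11:98970286-98971955 and chr11:98973570-98973926 were at 74.1% or more and 73.3% or more in every library.

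Rarb codes for RARβ, whose gene is itself switched on by retinoic acid and is often methylated in human cancers. Both ends of this long gene had no covered CpG, and the only CpG-rich stretch read in every library surrounded the internal start whose promoter is shown above (chr14:16574872-16576064, 103 positions). It had 43.5% and 71.0% in the AG120 libraries, 52.3% and 26.1% in the AZA libraries, 77.0% and 21.7% in the combination libraries, and 4.53% and 12.9% in the Vehicle libraries. All 6 libraries with a drug lay above both Vehicle libraries. This stretch was singled out after its values had been seen, so no test is given.

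The Rarb promoter window itself was not where those methylated reads lay. It had 0% methylated reads in the 4 libraries that read it: AZA replicate 2 with 930 reads, combination replicate 2 with 50 reads, and the Vehicle libraries with 65 and 24 reads. These depths allow levels of up to 0.323%, 6.0%, 4.62% and 12.5%, in that order. Neither AG120 library had a read there. A bin in which every library with a drug lay above Vehicle was found 600 to 401 bp before the start, at 14 positions. There Rarb had 62.6% and 54.0% in the AG120 libraries and 32.1% and 66.5% in the AZA libraries. It had 95.6% and 34.8% in the combination libraries and 0% in both Vehicle libraries.

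**Figure D2:**
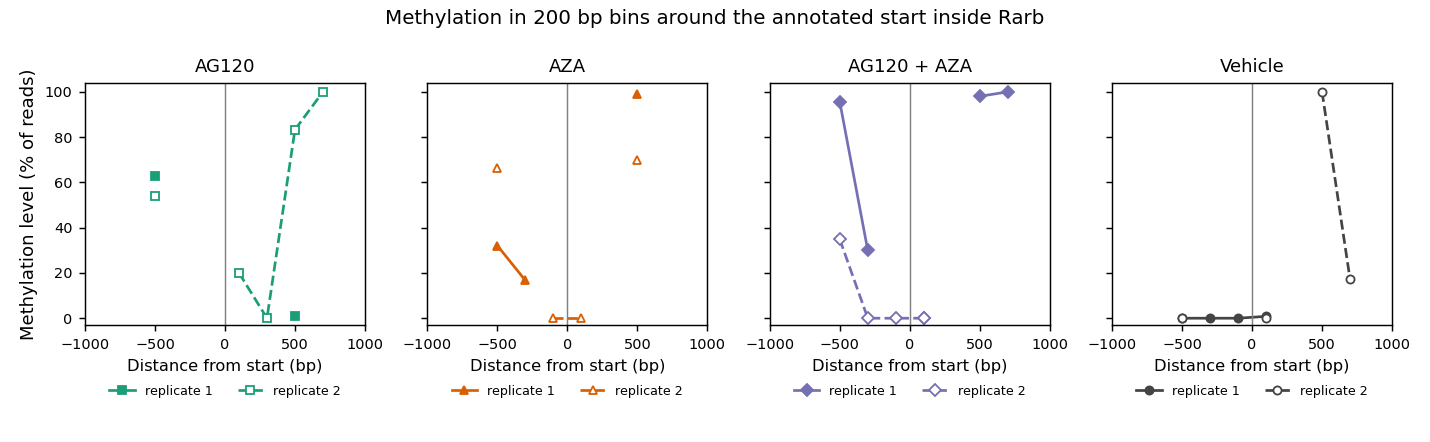
Methylation level (percent of reads) of Rarb in 200 bp bins by distance from the internal annotated start (grey line; negative is before the start), for each library with 20 or more reads in a bin. Filled points and solid lines are replicate 1, open points and dashed lines replicate 2; the bin from 600 to 401 bp before the start is at 0% in both Vehicle libraries and at 32.1% or more in the other 6.

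The depth in that Rarb bin was uneven, with 116 and 495 reads in the Vehicle libraries. Of its positions, 3 were read in all 8 libraries. There the level was 66.7% and 54.3% in the AG120 libraries, 27.8% and 66.6% in the AZA libraries, 99.4% and 34.8% in the combination libraries, and 0% in both Vehicle libraries. Vehicle replicate 1 had only 12 reads at these 3 positions, and Vehicle replicate 2 had 492. Over the whole stretch, 10 positions had 10 or more reads in both AG120 and Vehicle, with unweighted means of 67.3% and 32.1%. For AZA and Vehicle there were 6 such positions, at 64.2% and 0.0%, and for the combination and Vehicle 7, at 94.9% and 45.9%. The order held at these shared positions, which are few. Beyond 400 bp after the start Vehicle replicate 2 was also methylated, at 100% of 87 reads in the bin from 400 to 599 bp. That bin held many more reads in AG120 replicate 2 (83.3% of 1048) and combination replicate 1 (98.1% of 1180). AG120 replicate 1 was at 1.12% of 179 reads there. Methylated reads of the stretch thus lay on both sides of the start. The part that uneven reading of this bin plays in the stretch difference was not tested.

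RXRα and RXRβ, coded by Rxra and Rxrb, pair with the RARs and with many other nuclear receptors. The lower-coordinate Rxra window holds its outermost start (chr2:27675445-27676945, 93 positions). Its level was 0.524% and 12.1% in the AG120 libraries, 3.92% and 3.3% in the AZA libraries, 0% in both combination libraries, and 6.30% and 6.01% in the Vehicle libraries. Both AZA and combination libraries lay below Vehicle. The combination had only 99 and 600 reads, which allow levels of up to 3.03% and 0.50%. The Rxra start had the smallest p of the 18 windows in the combination against Vehicle, a difference of -6.15 points (edgeR adjusted p = 0.866). It was also the smallest against AZA, with -3.62 points (edgeR adjusted p = 0.949), and against AG120, with -6.31 points (edgeR adjusted p = 1).

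The Rxra difference did not rest on shared CpGs. Only 3 of its 93 positions had 10 or more reads in both the combination and Vehicle, and both groups were at 0% there. A CpG-dense stretch (chr2:27676208-27678400, 353 positions) overlaps this window, runs past it and holds an annotated Rxra start. It had 5.98% and 5.01% in the AG120 libraries and 4.81% and 2.77% in the AZA libraries. It had 5.06% and 5.72% in the combination libraries and 2.73% and 3.76% in the Vehicle libraries. In this stretch the combination lay above Vehicle, the opposite order to the window. The stretch includes CpGs of the window, so they are not separate regions.

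The Rxrb start (chr17:34030812-34032312, 156 positions) was close to 0 in every library. It had 2.02% and 1.28% in the AG120 libraries, 0.0668% and 1.18% in the AZA libraries, 0.309% and 0.279% in the combination libraries, and 1.75% and 0.988% in the Vehicle libraries. The combination lay below Vehicle by 1.07 points on average, 0.294 ± 0.0209% against 1.37 ± 0.537% (SD, n = 2 each; edgeR adjusted p = 1).

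The 3′ end of Rxrb had the widest range of the 7 gene ends. That window (chr17:34037903-34039403, 26 positions) had 77.0% and 44.0% in the AG120 libraries, 99.8% and 94.2% in the AZA libraries, 60.6% and 86.6% in the combination libraries, and 39.9% and 71.8% in the Vehicle libraries. Both AZA libraries lay above both Vehicle libraries. The means were 97.0 ± 3.99% with AZA and 55.8 ± 22.5% with Vehicle (SD, n = 2 each; edgeR adjusted p = 1), the smallest p of the 18 windows in that comparison. At the 17 positions with 10 or more reads in both groups, the unweighted means were 98.7% with AZA and 62.3% with Vehicle, with 12 positions higher and 1 lower. Among gene ends of other genes, the levels nearest to this pattern over the 8 libraries were those of the Gpr50 start, the Gm15831 start and the Fes 3′ end, at a mean absolute difference of 10.9, 11.1 and 11.4 points.

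Aldh1a2 codes for RALDH2, the main retinoic acid synthesis enzyme of the embryo. Its start was the methylated one among the 5 genes with a kept start window. Its start window (chr9:71214789-71216289, 219 positions) had 54.5% and 44.6% in the AG120 libraries, 57.8% and 66.1% in the AZA libraries, 73.2% and 70.8% in the combination libraries, and 63.0% and 52.5% in the Vehicle libraries. Of 9866 start windows in the table, the median level over the 8 libraries was 2.01% and 82.7% were under 20%. At or above the Aldh1a2 level lay 6.48% of them. The combination lay above Vehicle and above both single drugs, with means of 72.0 ± 1.68% in the combination, 49.5 ± 6.98% in AG120, 62.0 ± 5.90% in AZA and 57.7 ± 7.41% in Vehicle (SD, n = 2 each).

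**Figure D3:**
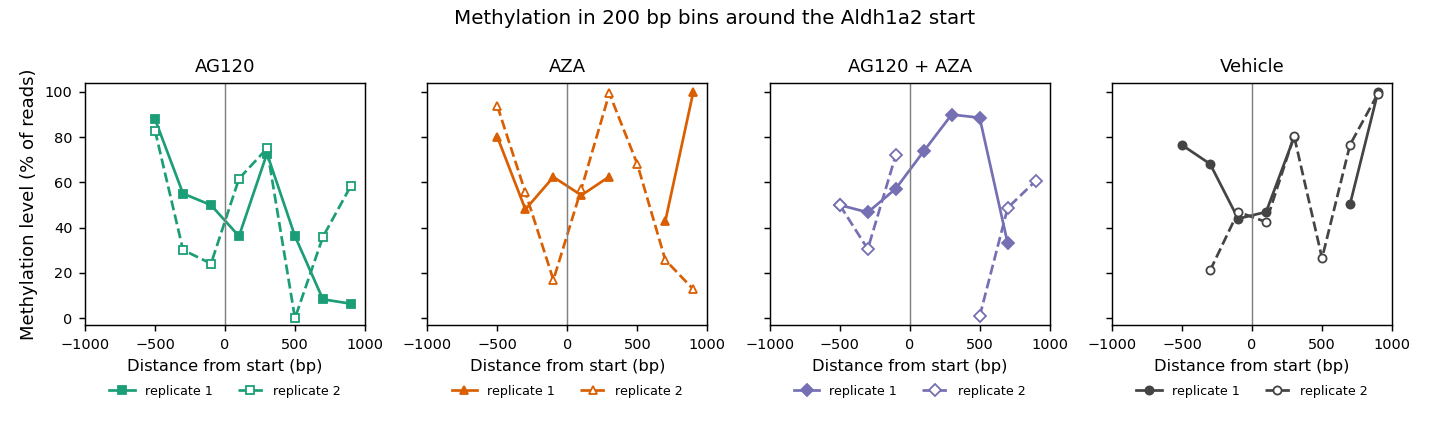
Methylation level (percent of reads) in 200 bp bins by distance from the Aldh1a2 start (grey line; negative is before the start), for each library with 20 or more reads in a bin. Filled points and solid lines are replicate 1, open points and dashed lines replicate 2; in the bin ending at the start the 8 libraries range from 16.9% to 72.1%.

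The promoter sequence of Aldh1a2 printed above was read in every library. It had 43.9% and 34.3% in the AG120 libraries, 57.1% and 52.9% in the AZA libraries, 63.9% and 71.9% in the combination libraries, and 49.0% and 28.1% in the Vehicle libraries. Both AZA and combination libraries lay above both Vehicle libraries in these 300 bases. At the 81 positions of the start window with 10 or more reads in both groups, the unweighted mean was 59.3% in the combination and 46.0% in Vehicle, with 35 positions higher and 26 lower. Only 10 positions were read in all 8 libraries. There the order turned, with 20% and 26.7% in the combination libraries and 60.0% and 66.7% in the Vehicle libraries, at depths down to 30 reads in combination replicate 2 and 60 in Vehicle replicate 2.

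AG120 and AZA were also set against Vehicle at shared Aldh1a2 positions. The means were 46.4% with AG120 and 51.5% with Vehicle at 101 positions, and 62.6% with AZA and 54.4% with Vehicle at 103 positions. AG120 overlapped Vehicle in the start window, and so did AZA.

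Aldh1a3 codes for RALDH3, a sister enzyme of Aldh1a2. Its strand is not in the sequence table, so its window at the upper coordinate (chr7:66426977-66428477, 113 positions) is called only its upper end. It had 12.9% and 10.2% in the AG120 libraries, 22.4% and 1.20% in the AZA libraries, 2.61% and 9.70% in the combination libraries, and 9.11% and 10.9% in the Vehicle libraries. The 2 AZA libraries were the highest and the lowest of all 8, so the spread within AZA covered the other groups.

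Cyp26a1 and Cyp26b1 code for the enzymes that clear retinoic acid, and Cyp26a1 is itself a direct retinoic acid target. The Cyp26a1 start window (chr19:37696738-37698238, 87 positions) had 1.99% and 3.71% in the AG120 libraries, 3.45% and 2.53% in the AZA libraries, 0.456% and 15.3% in the combination libraries, and 7.31% and 3.04% in the Vehicle libraries. Every group overlapped Vehicle, and the high value of combination replicate 2 came from the shallowest library there, with 554 reads. At the 12 Cyp26a1 positions read in all 8 libraries, no library was above 0.856%.

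Both ends of Cyp26b1 had no covered CpG, so its start could not be read. Inside the gene, 3 of its 5 stretches were low. The one at chr6:84583503-84586071 (199 positions) ranged from 0.371% to 8.70% over the 8 libraries, with a median of 3.20%. The other two, at chr6:84587544-84587762 and chr6:84588503-84590676, had medians of 0.744% and 3.61%. In the last of these, the AG120 libraries had 19.3% and 8.45% against 2.85% and 0% in the Vehicle libraries, and the AG120 libraries did not overlap Vehicle. Of its 176 positions, 0 were read in all 8 libraries, so this order is not shown at CpGs common to all of them.

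**Figure D4:**
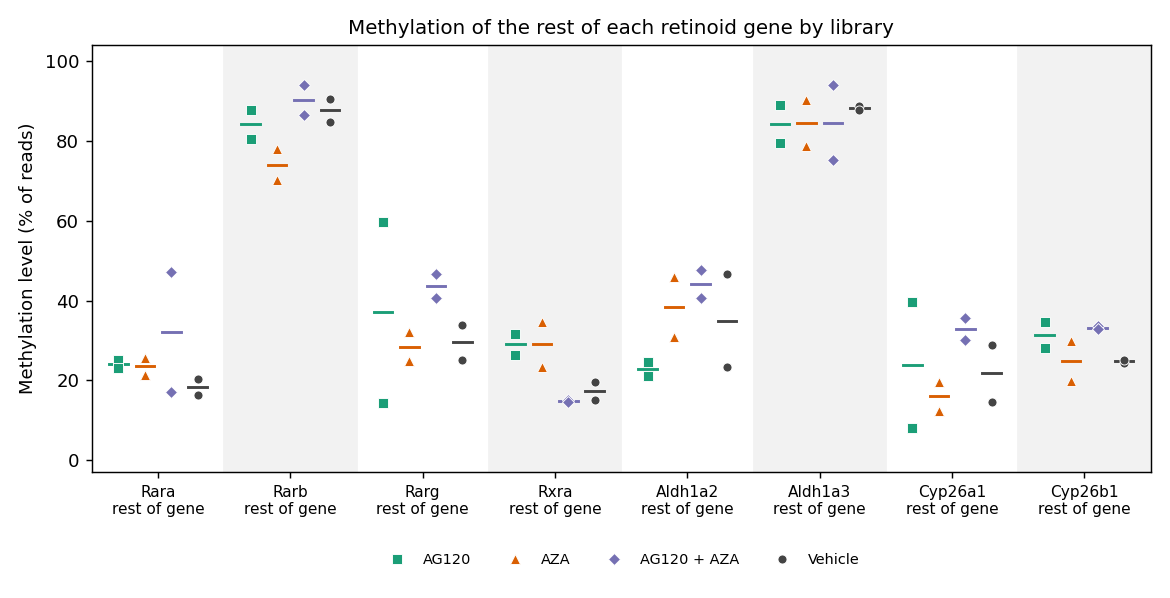
Methylation level (percent of reads) of the rest of each gene, outside the gene-end windows, for the 8 genes with 20 or more reads in every library. Each point is a library and each bar the mean of 2; Rarb and Aldh1a3 are at 70.2% or above in every library and the other 6 genes are at 59.8% or below.

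Summed over the whole rest of the gene, Rarb and Aldh1a3 were heavily methylated, and the other genes were at 59.8% or below in every library. These windows can hold annotated starts, as they do in Rara and Rxra. Stretches with a mean over 80% also lay inside Rara, Rarg, Rxra and Cyp26b1, so the lower levels do not describe the whole gene body. The rest of Rarb had 80.6% and 87.7% in the AG120 libraries, 78.0% and 70.2% in the AZA libraries, 94.0% and 86.5% in the combination libraries, and 90.5% and 84.8% in the Vehicle libraries. The AZA libraries were the lowest of the 4 groups, with a mean of 74.1 ± 5.53% against 87.7 ± 4.03% in Vehicle (SD, n = 2 each), a difference of -13.6 points (edgeR adjusted p = 1). The combination, at 90.2 ± 5.26%, lay 16.2 points above AZA (edgeR adjusted p = 0.959). The stretch around the internal start described above lies within this window, which holds 428 positions.

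The rest of Rxra (493 positions) had 31.6% and 26.5% in the AG120 libraries, 34.7% and 23.4% in the AZA libraries, 15.04% and 14.50% in the combination libraries, and 14.99% and 19.5% in the Vehicle libraries. Both single-drug groups lay above Vehicle, while the combination overlapped Vehicle and lay below both single drugs. AG120 averaged 29.0 ± 3.65% and Vehicle 17.2 ± 3.18% (SD, n = 2 each), a difference of 11.8 points (edgeR adjusted p = 1). The combination lay 14.3 points below AG120 (edgeR adjusted p = 1). The pattern did not hold when positions with 10 or more reads in every library were averaged without weights. AG120 then lay -0.523 points and the combination 7.46 points from Vehicle, the opposite order to the window. Over positions read in all libraries, AG120 lay 11.1 and the combination 6.73 points above Vehicle, where the combination lay -2.46 points from Vehicle over all reads.

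The other windows varied widely between libraries. The rest of Rara ranged from 16.3% to 47.2% over the 8 libraries, that of Rarg from 14.3% to 59.8%, that of Aldh1a2 from 21.1% to 47.6% and that of Cyp26a1 from 7.96% to 39.5%. The rest of Cyp26b1 had 33.6% and 32.8% in the combination libraries and 24.4% and 25.1% in the Vehicle libraries. Averaged without weights over positions with 10 or more reads in every library, this difference turned from 8.43 to -3.17 points, and that of AG120 from Vehicle at the same window from 6.53 to -8.23 points. The rest of Aldh1a3 ranged from 75.1% to 94.0%, and both extremes were combination libraries. The 3 outer flanks, of Rara, Rxrb and Cyp26a1, ranged from 11.1% to 57.8%, from 7.95% to 99.9% and from 6.27% to 87.9%.

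**Figure D5:**
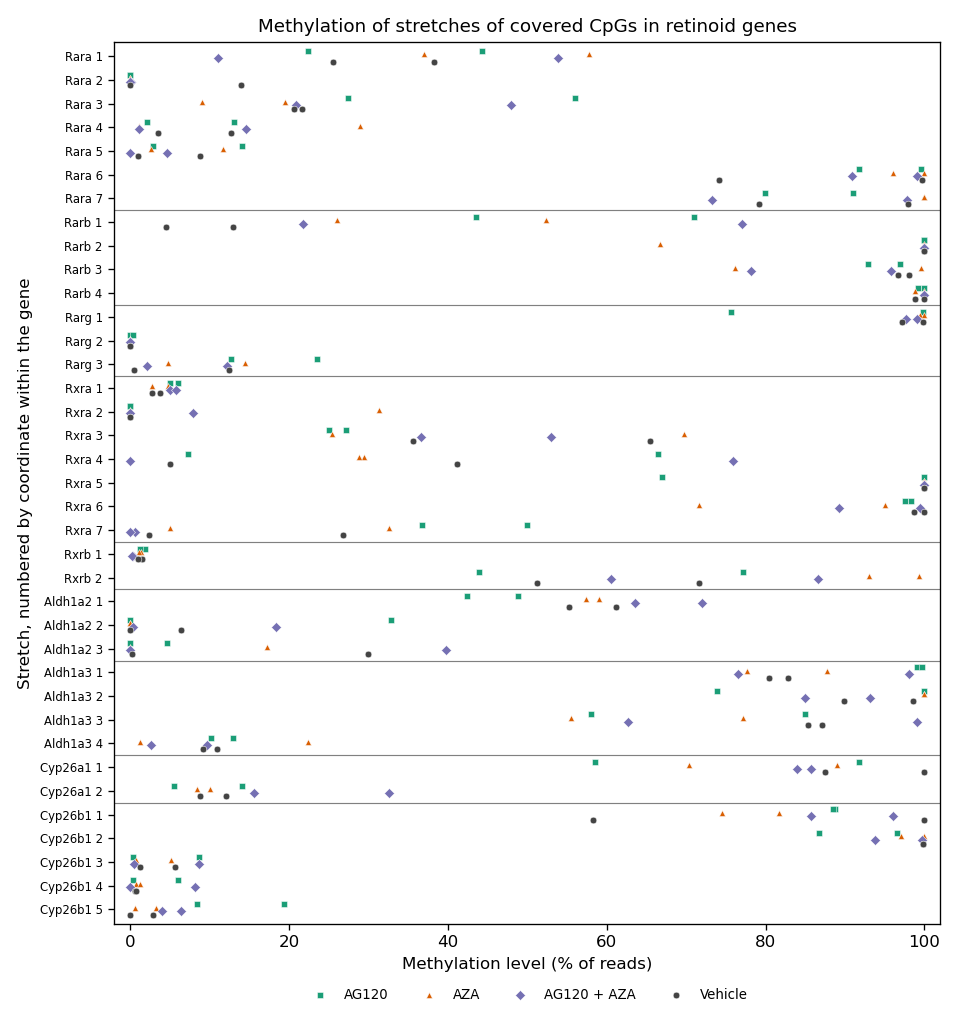
Methylation level (percent of reads) of the 37 stretches of covered CpGs in the 9 genes, numbered by coordinate within each gene; each point is a library and colours are the 4 groups. Of the stretches, 13 have a mean over 80%, 16 a mean under 20% and 8 lie between, among them Rarb 1 around its internal start and Aldh1a2 1 at its start.

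Cut into stretches, the 9 genes divided into methylated and unmethylated regions. Of 37 stretches, 13 had a mean level over 80% across the 8 libraries, 16 had a mean under 20% and 8 lay between. The lowest was the Rarg stretch at chr15:102246102-102246525 (43 positions), at 0% in 7 libraries and 0.291% in AG120 replicate 2. Among the highest was the Rarb stretch at chr14:17034954-17035601 (15 positions), at 98.8% or more in every library. The starts of Rxra, Rxrb, Rarg, Cyp26a1 and the upper end of Aldh1a3 lay in low stretches, and that of Aldh1a2 in an intermediate one.

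Windows whose groups did not overlap were counted against all windows. In AG120 against Vehicle, 4 of the 18 windows lay wholly higher and 1 wholly lower, or 22.2% and 5.56%, where 17.9% and 16% of all 34629 windows did. In AZA against Vehicle, 4 were higher and 3 lower, or 22.2% and 16.7%, where 14.6% and 18.2% of all windows were. In the combination against Vehicle, 4 were higher (the Aldh1a2 start and the rests of Rarg, Cyp26a1 and Cyp26b1) and 2 lower (the starts of Rxra and Rxrb), or 22.2% and 11.1%, where 18.2% and 18.9% of all windows were. Against AZA, 6 windows of the combination were higher and 3 lower, or 33.3% and 16.7%, where 18.5% and 15.9% of all windows were. Against AG120, 2 were higher and 4 lower, or 11.1% and 22.2%, where 14.5% and 15.9% of all windows were. With 18 windows, 1 window is 5.56%. The share farthest from the background was the 33.3% of windows higher in the combination than in AZA, and the others lay nearer to it.

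The median difference over the 18 windows was 1.49 points in AG120 against Vehicle, -0.32 in AZA against Vehicle and 3.10 in the combination against Vehicle. Over all windows it was 0.22, -0.10 and 0.12 points. Without AG120 replicate 2 the first of these medians was -3.23 points, so its sign rests on that library, and without Vehicle replicate 1 it was 0.0571 points. The AZA median was -2.74 points without AZA replicate 1 and 1.45 without AZA replicate 2. The combination median was 0.573 points without Vehicle replicate 1, and 5.34 and 5.19 points without combination replicate 1 and without combination replicate 2. The 3 comparisons share the Vehicle libraries.

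Other genes of the pathway were taken from 4 lists of 47 genes: retinoid metabolism and transport, coregulators, retinoic acid targets, and other partners of RXR. They were chosen by function, and 44 genes had 72 kept windows. The test called 0 of these windows in each of the 5 comparisons, with 1, 1, 3, 5 and 1 at an unadjusted p under 0.05 in AG120 and AZA against Vehicle and in the combination against Vehicle, AZA and AG120. In the combination against Vehicle, the rest of Zbtb16 had the smallest p of these windows. Zbtb16 codes for PLZF, a repressor that is fused to RARA in some human leukaemias. It had 74.6% and 57.9% in the combination libraries and 41.9% and 31.1% in the Vehicle libraries (edgeR adjusted p = 0.840).

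The gene ends of the coregulators and of the other RXR partners were little methylated. The 9 kept ends of the coregulators, which hold repressors such as Ncor1 and activators such as Ncoa1, averaged from 0.497% to 1.78% in the 8 libraries, and the 8 kept ends of the RXR partners from 0.846% to 6.17%. The 6 kept ends of retinoic acid targets averaged from 17.8% to 42.6%. Of the 12 windows of that list, 11 were higher in the combination than in Vehicle on average and 1 was lower, with a median difference of 9.26 points. Over all genes 17801 windows were higher and 16238 lower, with the median of 0.12 points given above. The windows of retinoid metabolism and transport divided into 9 higher and 11 lower, with a median of -0.54 points. Those of the RXR partners divided into 14 and 5 (median 2.58 points) and those of the coregulators into 12 and 8 (0.40 points). The median level of the target windows was uneven between replicates, at 74.8% and 45.1% in the combination libraries. It was 49.1% and 45.1% in the AG120, 13.1% and 46.3% in the AZA, and 26.0% and 23.4% in the Vehicle libraries.

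Methylation at marker genes does not measure expression, so the labelled cell type could be set only against levels at gene ends. Of 9 progenitor and myeloid markers 5 had a kept end, all starts. Kit ranged from 0.137% to 19.4%, Cd34 from 0% to 7.30%, Flt3 from 0% to 3.72%, Gata2 from 0% to 4.86% and Cebpa from 0.0303% to 3.15% over the 8 libraries. The mature myeloid markers, among them Itgam, which codes for Cd11b, had no kept end, nor did the erythroid ones. Ends of lymphoid and stromal markers were low or uneven, with the Ebf1 start at 0.128% to 20.01%, the Tcf7 start at 10.6% to 26.8% and the Cxcl12 start at 16.3% to 52.5%. The Ebf1 3′ end was at 0% to 27.3%. The lower-coordinate ends of Cd4 and Pdgfrb, whose strands are not given, were at 0% to 4.10% and 0% to 64.5%. Pdgfrb had as few as 22 reads in a library. The part of these lymphoid and stromal markers in the differences at the retinoic acid genes was not tested.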

How the data were processed

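Reduced representation bisulfite libraries (8, 2 per group) were analysed from the authors' deposited table of raw counts of methylated and unmethylated reads at each CpG cytosine, with both strands listed separately. Per the submitters' processing notes, the tools were Bismark 0.22.3, Trim Galore 0.4.4, edgeR 3.32 in R 4.0.2, bcl2fastq 2.17.1.14 and SAMtools 1.4.1, with mm10. What each tool did, whether duplicates were removed and how complete the bisulfite conversion was is not given in the sources used here. No sample column was left unused (0).

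Gene coordinates and promoter sequences came from RefSeq (GRCm38.p6, the assembly behind mm10). Counts were summed per window and library, and windows with 20 or more reads in every library were kept. edgeR 4.0.16 (R 4.3.3, robust quasi-likelihood) was run over all 34629 windows, with all 8 libraries in 1 fit. Each library had its own term and each group a methylation term. The fit was also run on simulated data with known changes. The spread set between simulated libraries was not taken from these data, so that check does not measure the power to find changes here. Alternatives were limma 3.58.1 (pseudocount 2), DESeq2 1.42.0 with size factors of 1 or its own, minimums of 10 or 50 reads, at least 3 positions, narrower ends (500 bp outside, 250 bp inside), only positions read in all libraries, unweighted means, a replicate block and leaving out each library. A planned permutation test of a level summed over the genes was dropped, because the genes were chosen as a list. The genes, lists and windows were chosen with earlier results of these data known. Full statistics were given for the 2 windows with the smallest p in each of the 5 pairwise comparisons, for 1 window of the pathway lists (lowest p, combination against Vehicle), and values for the 3 nearest gene ends for the window with the widest range. A count of 0 methylated reads was taken to allow up to 3 reads of the total.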

Additional observations from a re-analysis of the deposited data

Results flagged for a closer look

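Values are differences in points of methylation level, and each pattern was picked because the libraries of both groups moved in opposite directions with and without the other drug. The rest of Rxra lay 11.8 points higher in AG120 than in Vehicle, and -14.3 points from AZA in the combination. For AZA at the same window, the difference was 11.8 points in AZA from Vehicle and -14.3 points in the combination from AG120. Averaged without weights over positions with 10 or more reads in every library, AG120 lay -0.523 points and the combination 7.46 points from Vehicle there, and over positions read in all libraries the combination lay 6.73 points above Vehicle, so the pattern did not hold under these settings. The edgeR interaction of the drugs there had an unadjusted p under 0.05 and an adjusted p of 1. That test called 0 of 34629 windows, of which 1132 had an unadjusted p under 0.05. By limma 0 windows passed, and by DESeq2 477, with 0 of the retinoic acid genes among them. The Rxra stretch at chr2:27758398-27758504 (5 positions, as few as 20 reads in a library) lay 28.8 points higher in AG120 than in Vehicle and -18.5 points from AZA in the combination. The Aldh1a2 stretch at its start (chr9:71215196-71216630) lay -12.6 points from Vehicle in AG120 and 9.56 points above AZA in the combination. With narrower ends, the AG120 difference from Vehicle at the Aldh1a2 start window turned from -8.22 to 1.13 points. At the 10 positions of this stretch read in all libraries, AG120 overlapped Vehicle, and both combination libraries lay below both AZA libraries. The Aldh1a2 pattern thus did not hold at those positions, which had as few as 10 reads in a library. The differences for both stretches were not tested.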

How the results depend on the processing

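With DESeq2 on the same counts, 367 windows of all genes passed in AG120 against Vehicle, 189 in AZA against Vehicle, 834 in the combination against Vehicle, 891 against AZA, 839 against AG120, 919 for the average AG120 effect, 550 for the average AZA effect and 477 for the interaction, where edgeR called 0 in each. With its own size factors the counts were 537, 142, 1420, 1166, 841, 1428, 635 and 389. The cause was not tested. Over positions read in all libraries edgeR called 1 window in AG120 against Vehicle, 1 in the combination against Vehicle and 4 for the average AG120 effect. Over all positions, leaving out 1 library gave between 0 and 4 calls for the average AG120 effect, with 4 without AG120 replicate 1. The other edgeR and limma settings called 0 in the comparisons not named here. The windows of the retinoic acid genes had 0 calls under every setting, with a smallest adjusted p of 0.0720 (DESeq2 with its own size factors). The median AG120 difference over their 18 windows was between -3.23 points (without AG120 replicate 2) and 1.23 points when 1 library was left out. Their differences from Vehicle changed sign or fell to 0 in 16 of 24 values with unweighted means. Those that fell to 0 were the Cyp26a1 start in AZA and in the combination. The sign changed in 10 of 30 values over positions read in all libraries and in 8 of 51 with narrower ends. It changed in 0 with 10 or 50 reads or at least 3 positions. Same-numbered replicates did not deviate together (correlations from -0.0101 to 0.0141), and the fit with the replicate number as a replicate block called 0 windows in each comparison. The unweighted mean over positions read in both groups was added after seeing the data. The shallowest of these windows in 1 library were the Rara flank with 26 reads, the Rxrb flank with 88 and the Rxra start with 99.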
